A study of Mus musculus with 18 samples.

Results

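Collagens are the main structural proteins of the lung's connective tissue, and the genes measured here are those that encode their chains. They were taken by symbol, as all mouse genes named Col, a number, a and a second number in a RefSeq gene table, which gave 44 genes. Of these, 43 had at least 1 probe on the array (Col12a1 had none), with 63 probes among them, out of 20660 named genes and 55681 probes in all. Where a gene had more than 1 probe (14 genes), the brightest one, by its mean intensity over all arrays, stood for the gene, and the other probes are described where they differ.

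A collagen molecule is a rope of 3 chains, which are hydroxylated and glycosylated in the endoplasmic reticulum, secreted, trimmed at their ends and cross-linked into larger structures. Collagens I, III and V form the banded fibrils of the lung interstitium, collagen IV forms the sheet under alveolar epithelium and capillary endothelium, and collagen VI forms beaded filaments between them. Fibroblasts and related mesenchymal cells make most of the fibrillar chains, and a rise or fall of these chains is a usual readout of scarring or of matrix turnover in the lung.

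The study asked how lung gene expression responded to mixtures of polycyclic aromatic hydrocarbons (PAHs), combustion products that include the carcinogen benzo[a]pyrene (BaP). All animals were male MutaTMMouse, a transgenic mutation-reporter strain on a BALB/C-DBA/2 background, about 12 weeks old, and were gavaged on 28 consecutive days. The vehicle group (n = 5) received olive oil alone, and the low (n = 4), medium (n = 5) and high (n = 4) dose groups received the 4PAH-Mix of BaP, benz[a]anthracene, benzo[b]fluoranthene and chrysene in olive oil. The daily dose per kg of body weight was 12.5 mg (low), 25 mg (medium) or 50 mg (high), counted as BaP equivalents. Lungs were taken 72 hours after the final dose, and RNA came from whole lung pieces, so that fewer cells of a type and less RNA per cell cannot be told apart. Each mouse had its own array, where its lung RNA, labelled with Cy5, competed with Universal Mouse Reference RNA, a pool from 11 mouse cell lines labelled with Cy3, and the dyes were not swapped. All values below are log2 ratios of lung to reference for 1 probe, and a difference of 1 on this scale is a 2-fold difference.

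A gene was called changed at an adjusted p of 0.05 or less (limma, Benjamini-Hochberg over 55681 probes) with a fold change of at least 1.5, which is 0.585 on the log2 scale. The 3 doses were compared with the same 5 vehicle mice. Markers of alveolar type 1, alveolar type 2 and club cells (13 genes) were well above background on all 18 arrays. Between 51.5% and 61.1% of all probes were well above background in the lung channel. The 3 slides each held mice of all 4 groups, but each group kept to 1 of the 4 array columns of a slide, and an effect of that column cannot be told apart from one of dose.

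The collagen genes called lower on the probe that stood for the gene were 4 fibrillar ones, Col1a1, Col1a2, Col3a1 and Col5a3. Col1a1 and Col1a2 encode both chains of collagen I, and Col3a1 encodes the single chain of collagen III. Col5a3 encodes a chain of the fibril-nucleating collagen V. At the medium dose all 4 were called lower, with fold changes of 1.81 for Col1a1, 1.57 for Col1a2, 1.95 for Col3a1 and 1.77 for Col5a3. At the high dose the same 4 were called lower, with fold changes of 1.56, 1.57, 1.83 and 1.72. At the low dose Col5a3 alone was called, 1.79-fold lower. No collagen gene was called higher at any dose on its standing probe. On dimmer probes, described below, Col4a4 was called lower at the medium and high dose and Col20a1 higher at the high dose.

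The calls were few over the array as a whole. At the low dose 1 of 43 collagen genes (2.33%) was called lower, where 0.0436% of the named genes were called lower, 0.16% in either direction, and 0.0898% of all probes. At the medium dose it was 4 of 43 (9.3%), against 0.431% of the named genes called lower, 0.934% in either direction, and 0.726% of all probes. At the high dose it was again 4 of 43 (9.3%), against 0.774% lower, 1.51% in either direction, and 1.2% of all probes. The collagen genes did not move as one body. Their median log2 fold change was -0.05, 0.00 and -0.03 in order of dose, where that of all named genes was 0.01, 0.02 and 0.02. Of the 43 genes, 22, 21 and 25 had a fold change below 0 at the 3 doses, whatever its size. Among the 25 genes well above background on every array the medians were -0.12, -0.11 and -0.13, with 16, 17 and 18 genes below 0.

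**Figure D1:**
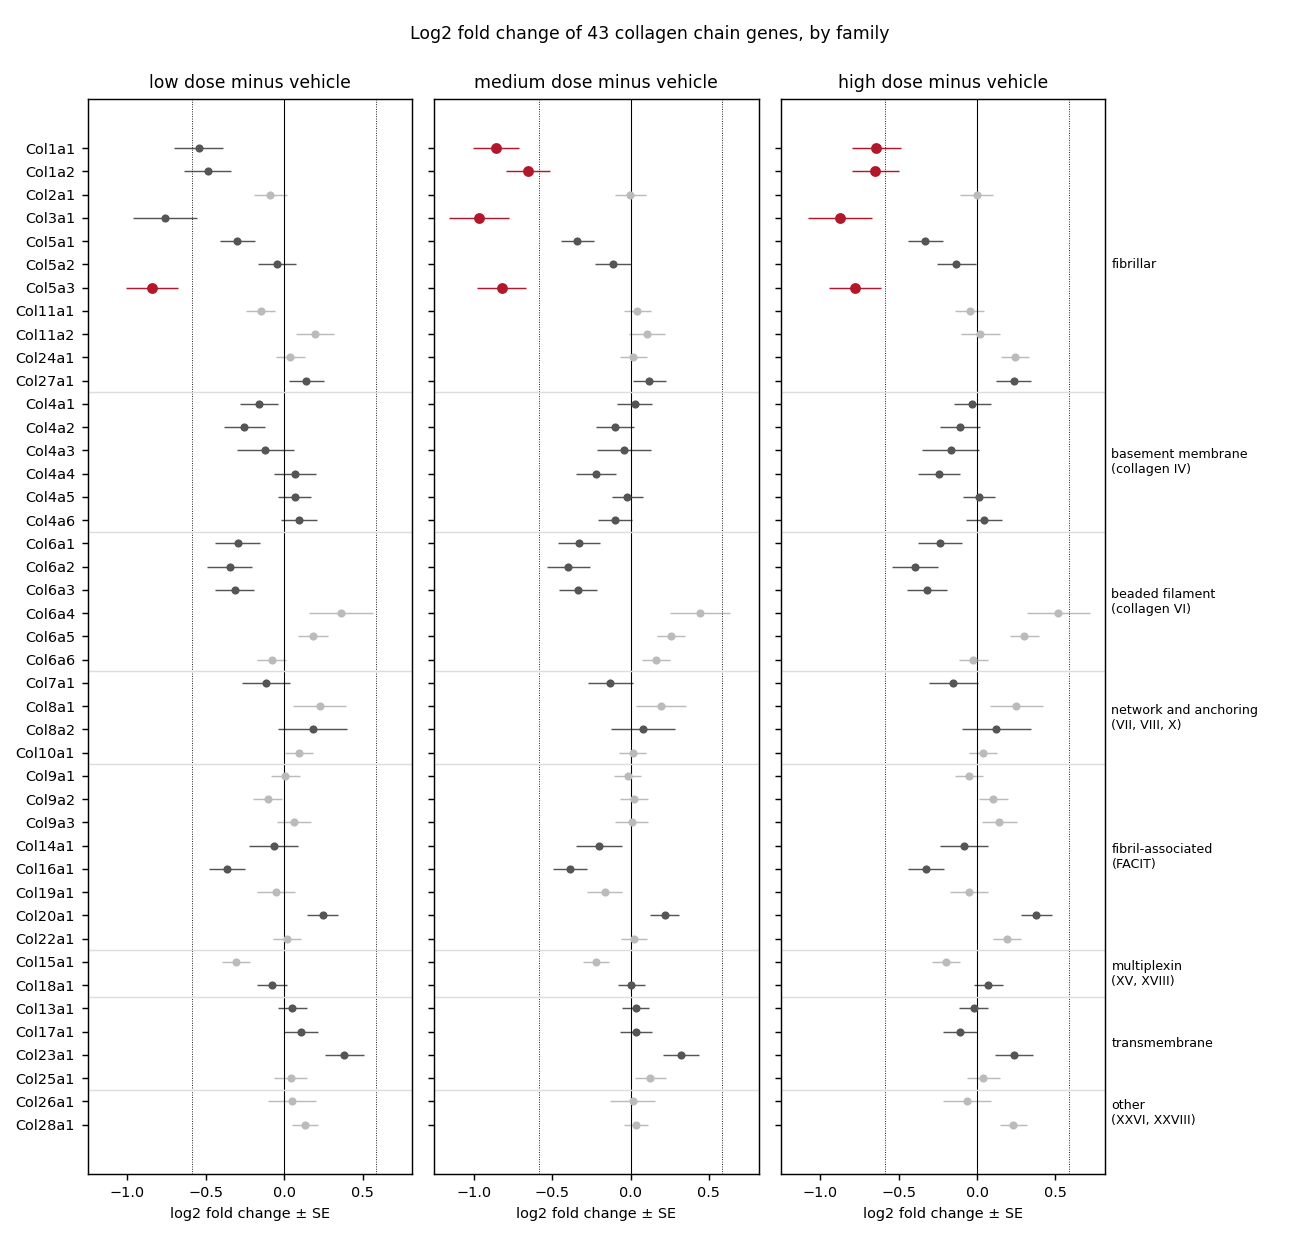
Log2 fold change (x axis, ± SE) of each of the 43 collagen chain genes (y axis, by family) at the low, medium and high dose against vehicle. Red points are called, dark grey points are not called and are well above background on all 18 arrays, pale points are not called and are dimmer on some array, and the dotted lines mark a 1.5-fold change. The 4 red genes at the medium and high dose are Col1a1, Col1a2, Col3a1 and Col5a3, all fibrillar and all lower.

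Col1a1 encodes the more abundant of the collagen I chains. Its log2 ratio was -2.60, -2.50, -1.73, -2.54 and -2.50 in vehicle mice 1 to 5, and -2.75, -3.09, -2.93 and -2.93 in low-dose mice 6, 7, 9 and 10. It was -3.24, -3.46, -3.03, -3.09 and -3.35 in medium-dose mice 11 to 15, and -3.15, -2.89, -3.35 and -2.68 in high-dose mice 16, 17, 18 and 20. Every dosed mouse lay below every vehicle mouse, and vehicle mouse 3 stood well above the other vehicle mice. The group means were -2.38 ± 0.36 (SD, n = 5), -2.92 ± 0.14 (n = 4), -3.23 ± 0.18 (n = 5) and -3.02 ± 0.29 (n = 4). The log2 fold change was -0.55 ± 0.16 (SE), -0.86 ± 0.15 and -0.64 ± 0.16 at the 3 doses (limma, adjusted p = 0.232, 0.00176 and 0.0192), and the two-sided exact permutation p over mice was 0.00794 at each dose, the smallest that these group sizes allow.

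Col1a2 encodes the second collagen I chain. It stood at -1.37, -1.22, -0.93, -1.30 and -1.29 in the vehicle mice, at -1.41, -2.00, -1.62 and -1.80 at the low dose, at -2.04, -2.18, -1.41, -1.82 and -1.94 at the medium dose, and at -2.03, -1.68, -2.20 and -1.57 at the high dose. Here too no dosed mouse reached the vehicle range, though low-dose mouse 6 and medium-dose mouse 13 came within a few hundredths of it. The log2 fold change was -0.49 ± 0.15, -0.66 ± 0.14 and -0.65 ± 0.15 (limma, adjusted p = 0.306, 0.0115 and 0.0152).

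Col3a1 encodes the chain of collagen III, which forms thin fibrils with collagen I in compliant tissues. Its log2 ratio was -0.98, -1.17, -0.12, -0.81 and -0.79 in the vehicle mice, -1.29, -1.25, -1.84 and -1.77 at the low dose, -1.81, -2.17, -1.5, -1.52 and -1.70 at the medium dose, and -1.86, -1.47, -2.13 and -1.12 at the high dose. The medium-dose mice lay clear of the vehicle mice, whereas high-dose mouse 20 fell inside the vehicle range. Its log2 fold change was -0.76 ± 0.20, -0.97 ± 0.19 and -0.87 ± 0.20 (limma, adjusted p = 0.188, 0.00627 and 0.0158).

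Col5a3 encodes a less common collagen V chain. The vehicle mice stood at -2.18, -2.02, -1.14, -1.89 and -2.06, the low-dose mice at -2.85, -2.80, -2.67 and -2.47, the medium-dose mice at -2.88, -2.80, -2.34, -2.53 and -2.85, and the high-dose mice at -2.93, -2.52, -2.42 and -2.67. All dosed mice were below all vehicle mice, and the 3 dose groups overlapped each other throughout. The log2 fold change was -0.84 ± 0.17, -0.82 ± 0.16 and -0.78 ± 0.17 (limma, adjusted p = 0.0395, 0.00436 and 0.00788).

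**Figure D2:**
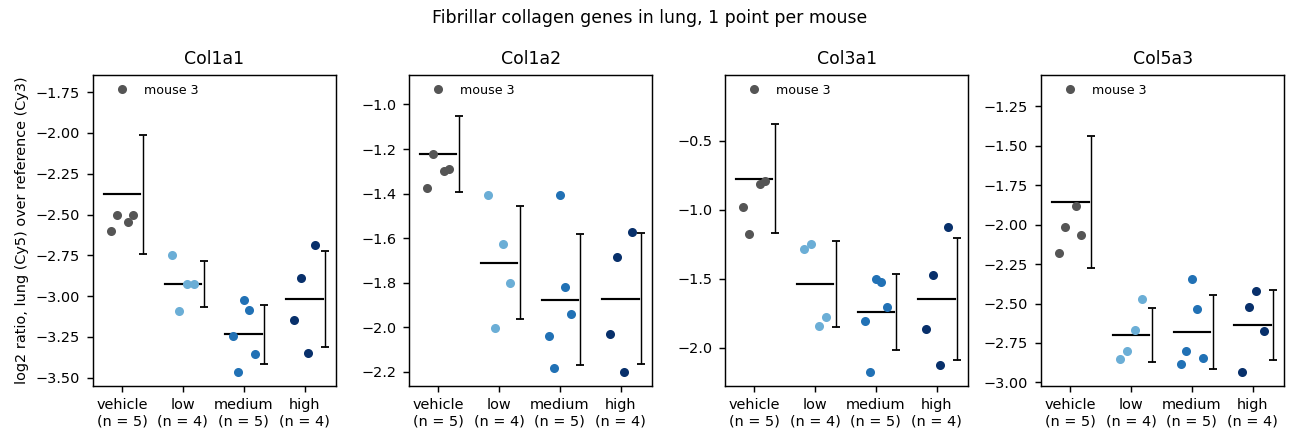
Log2 ratio of lung over reference RNA (y axis) for Col1a1, Col1a2, Col3a1 and Col5a3 in each mouse (points) by dose group (x axis). Horizontal lines are group means and bars are ± 1 SD. Vehicle mouse 3 is the highest point in each panel, from -0.12 for Col3a1 to -1.73 for Col1a1, and the dosed mice lie lower, with high-dose mouse 20 at -1.12 for Col3a1 the only one to overlap the vehicle mice.

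The starts of Col1a2, Col3a1 and Col5a3 are shown because each of these genes was called lower at the medium and the high dose. The 250 bases before the annotated start of each were read from RefSeq (GRCm38.p6), at chr6:4505368-4505617 on the plus strand for Col1a2, chr1:45311288-45311537 on the plus strand for Col3a1 and chr9:20815068-20815317 on the minus strand for Col5a3. The table gave a window for 35 of the 44 collagen genes and none for Col1a1. Capitals mark matches to the TATA box motif TATAAA, the CCAAT box and the GC box GGGCGG, each searched on both strands, with no overlap between matches.
Col1a2: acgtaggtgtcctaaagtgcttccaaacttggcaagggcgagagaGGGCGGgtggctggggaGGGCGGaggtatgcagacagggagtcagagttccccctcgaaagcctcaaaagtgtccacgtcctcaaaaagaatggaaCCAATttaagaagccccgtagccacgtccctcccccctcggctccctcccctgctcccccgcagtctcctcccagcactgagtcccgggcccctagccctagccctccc
Col3a1: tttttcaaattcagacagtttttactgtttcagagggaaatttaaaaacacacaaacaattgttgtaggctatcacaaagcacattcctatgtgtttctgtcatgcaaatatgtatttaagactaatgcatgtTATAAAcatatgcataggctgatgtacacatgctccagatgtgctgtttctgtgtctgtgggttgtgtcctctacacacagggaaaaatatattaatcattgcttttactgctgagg
Col5a3: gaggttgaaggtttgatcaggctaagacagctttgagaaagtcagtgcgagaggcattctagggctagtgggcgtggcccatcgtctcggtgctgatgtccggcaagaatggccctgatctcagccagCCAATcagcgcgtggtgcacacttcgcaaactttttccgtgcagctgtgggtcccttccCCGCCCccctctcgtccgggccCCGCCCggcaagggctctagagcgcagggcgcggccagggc
Col1a2 held 2 GC boxes and, 109 bases before the start, a CCAAT box. Col5a3 likewise held a CCAAT box, 122 bases before the start, and 2 GC boxes on the opposite strand. Col3a1 held neither and had a TATAAA 117 bases before the start in a window of 35.2% GC, against 62% for Col1a2 and 62.8% for Col5a3. Among all 32851 windows of this length, 12.4% held TATAAA, 33.8% CCAAT and 32.7% GGGCGG, and among the 38 windows of collagen chain genes 13.2%, 34.2% and 57.9% did. The matches describe the letters only.

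A gradation with dose was not seen for these 4 genes. The high dose differed from the low dose by -0.10 for Col1a1 (95% interval -0.44 to 0.24), -0.16 for Col1a2 (-0.49 to 0.17), -0.11 for Col3a1 (-0.56 to 0.34) and 0.06 for Col5a3 (-0.30 to 0.43). No collagen gene was called between the high and the low dose by limma, where 0.0823% of the named genes were, and 3 of 43 had an unadjusted p under 0.05. The intervals are wide beside the changes against vehicle, so that a difference between doses may have been missed.

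The mice kept similar positions for several of the genes. Vehicle mouse 3 had the highest value of its group for all 4, and medium-dose mouse 13 the highest of its group for all 4. Within the high dose, mouse 18 was lowest and mouse 20 highest for Col1a1, Col1a2 and Col3a1, but for Col5a3 mouse 16 was lowest and mouse 18 highest. The mean deviation of the 4 genes from the vehicle mean was 0.58 in vehicle mouse 3 and between -0.23 and -0.08 in the other vehicle mice. It ran from -0.73 to -0.52 at the low, -1.10 to -0.51 at the medium and -0.97 to -0.46 at the high dose. These 4 genes were picked by their calls on the same mice, so this separation follows from the choice. Over all 11 fibrillar genes, these 4 included, the mean ran from -0.12 to 0.29 in the vehicle mice. There it ran from -0.36 to -0.17 at the low, -0.42 to -0.14 at the medium and -0.37 to -0.14 at the high dose.

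Single mice decided part of the count. Without vehicle mouse 3, 2 genes (Col3a1 and Col5a3) were called at the high dose in place of 4, and Col1a1 and Col1a2 stood at -0.48 and -0.58 there (limma, adjusted p = 0.033 and 0.0434), under the fold limit. Without high-dose mouse 16 or mouse 18, Col5a3 alone was called at that dose. At the medium dose 3 or 4 genes were called whichever mouse was left out, Col1a2 being lost without vehicle mouse 3 or medium-dose mouse 12. The low-dose call of Col5a3 was lost on leaving out any low-dose mouse, vehicle mouse 2, 4 or 5, medium-dose mouse 12 or 14, or high-dose mouse 17 or 20, with log2 fold changes between -0.92 and -0.66 over all 18 such fits. With median centring of each array in place of loess none of the 4 was called at any dose, and their log2 fold changes at the 2 upper doses ran from -0.72 to -0.38. Col1a2 was the least stable of the 4. It was not called at the medium dose with the scanner software's ratios (-0.62, limma adjusted p = 0.0508), the authors' table (-0.57, adjusted p = 0.0193) or Cy5 alone (-0.52, adjusted p = 0.00998), nor with any of these at the high dose (-0.60, -0.53 and -0.52). Col1a1 was not called at the high dose with Cy5 alone (-0.48) or with only those groups in the fit (-0.64, adjusted p = 0.0525). On each of the 3 slides taken alone, the mean of the dosed mice was below that of the vehicle mice for all 4 genes at every dose. Col1a1 differed by -0.80 to -0.92 at the medium dose and by -0.18 to -1.21 at the high dose. On 1 slide each group had 1 mouse. On another, 1 low-dose and 1 high-dose mouse stood against vehicle mice 3 and 4. The 4 genes were picked by their calls over all slides.

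The reference channel, which held the same RNA on every array, moved less than the ratios did for these genes. Quantile-normalized Cy3 signals differed between dosed and vehicle arrays by -0.09 to 0.14 (log2) over the 4 genes and 3 doses (limma, adjusted p from 0.999 to 1). For Col1a1 they were higher on the dosed arrays, by 0.10, 0.14 and 0.11 in order of dose, a direction that lowers the ratio. For Col3a1 they were lower, at -0.05, -0.003 and -0.09. No collagen probe was saturated in either channel on any array.

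The share of genes whose dosed mice all lay below all vehicle mice gives a view without a model. This held for 6 of 43 collagen genes (14%) at the low dose, for 4 (9.3%) at the medium dose and for 5 (11.6%) at the high dose. Over all named genes it held for 1.54%, 2.18% and 4.55%. At the low dose Col15a1 and Col16a1 joined the 4 genes above, and at the high dose Col6a2 and Col16a1 stood beside Col1a1, Col1a2 and Col5a3. In the other direction, all dosed mice lay above all vehicle mice for 1 collagen gene at the low dose (Col23a1). The same held for 1 at the medium dose (Col6a5) and 0 at the high dose. Over all 20660 named genes it held for 375, 782 and 1272.

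The remaining fibrillar genes were not called. Col5a1, the most widely expressed collagen V chain, was at -0.30, -0.34 and -0.33 at the 3 doses (limma, adjusted p = 0.441, 0.0776 and 0.11). Its vehicle values ran from -2.46 to -1.85 and its dosed values from -2.74 to -2.36, so that the groups overlapped. Col5a2, the partner chain of Col5a1 and the neighbour of Col3a1 in the genome, was at -0.05, -0.11 and -0.13, with a 95% interval of -0.38 to 0.12 at the high dose. Col27a1, a cartilage-type fibrillar chain, was at 0.14, 0.12 and 0.23. Col2a1, Col11a1, Col11a2 and Col24a1, of which the first 3 are known from cartilage, were well above background on 6, 0, 5 and 0 of 18 arrays, and their fold changes stayed between -0.15 and 0.24.

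**Figure D3:**
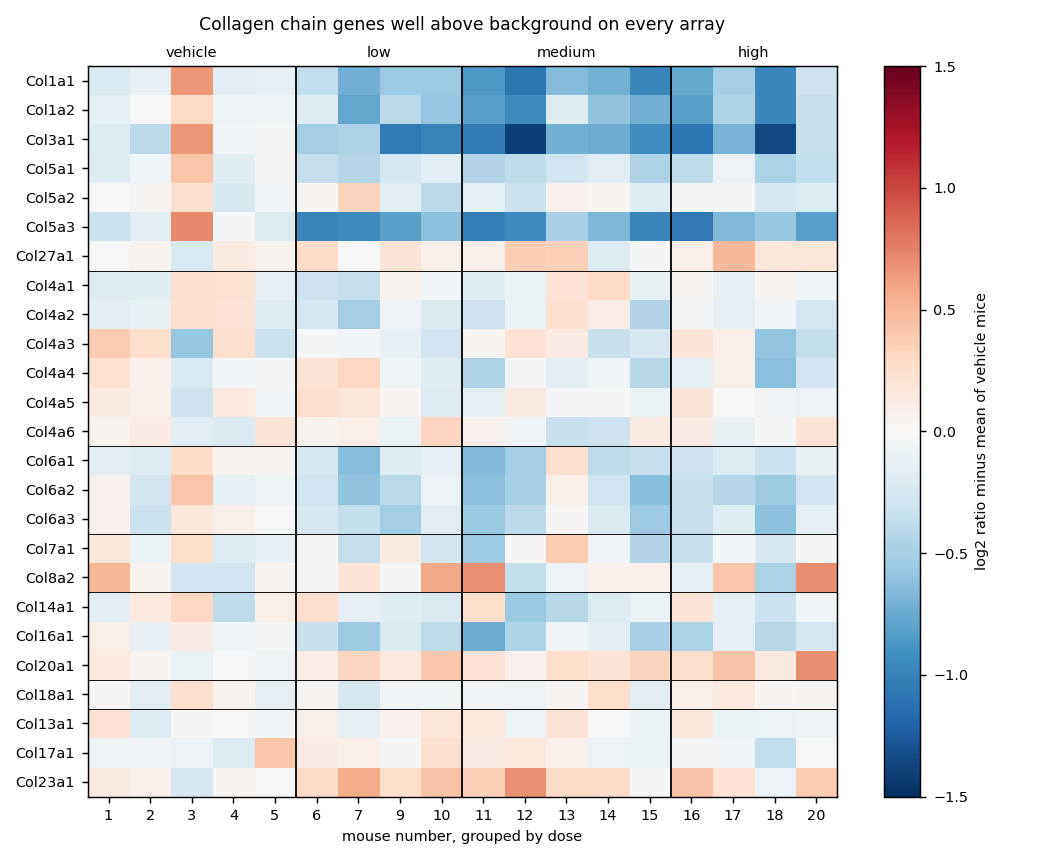
Log2 ratio minus the mean of the vehicle mice (colour) for the 25 collagen genes well above background on all 18 arrays (rows, grouped by family) in each mouse (columns, grouped by dose). Col1a1, Col1a2, Col3a1 and Col5a3 are blue across the dosed mice and red in vehicle mouse 3, Col6a1, Col6a2 and Col6a3 are mostly paler blue, and the collagen IV rows show no common colour.

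The collagen VI genes fell into 2 patterns, with no call in either. Col6a1, Col6a2 and Col6a3, the classical chains, had fold changes between -0.40 and -0.24 at all doses (limma, adjusted p from 0.122 to 0.625). Col6a2 had vehicle values of -0.82, -1.17, -0.47, -1.02 and -0.95 and high-dose values of -1.23, -1.31, -1.42 and -1.17, the latter all lower, though by under 0.01 for the closest pair (two-sided exact permutation p = 0.0159). Col6a1 and Col6a3 overlapped between vehicle and high-dose mice. The mean deviation of the 3 chains was highest in vehicle mouse 3 among the vehicle mice (0.29) and in mouse 13 among the medium-dose mice (0.12), the mice that were highest for the fibrillar genes. Col6a4 and Col6a5, chains made in few tissues, stood the other way, at 0.36, 0.44 and 0.52 and at 0.18, 0.26 and 0.30, without passing the test (smallest adjusted p = 0.0789, limma). They were well above background on 16 and 9 of 18 arrays. Col6a6 was above background on 4 arrays and lay between -0.08 and 0.16.

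The 6 collagen IV genes, whose products make the basement membrane scaffold, were well above background in all mice, and none was called on its standing probe at any dose. None had an unadjusted p under 0.05 in limma either. Col4a1 and Col4a2, the ubiquitous chains transcribed from a shared promoter region, were at -0.16 and -0.25 at the low dose, at 0.03 and -0.10 at the medium dose and at -0.03 and -0.11 at the high dose, with high-dose 95% intervals of -0.28 to 0.22 and -0.38 to 0.16. Col4a3, a chain of the mature alveolar and glomerular basement membrane, was at -0.12, -0.04 and -0.17. Its level was far above that of the reference pool in lung, at a log2 ratio of 3.64 ± 0.42 in the vehicle mice (SD, n = 5), as was that of Col4a4 at 3.62 ± 0.17. Col4a5 and Col4a6 stayed between -0.10 and 0.09.

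Col4a4 gave different answers on its 3 probes. The brightest probe read 3.85, 3.70, 3.39, 3.58 and 3.59 in the vehicle mice, 3.17, 3.60, 3.46, 3.55 and 3.20 at the medium dose and 3.48, 3.71, 3.00 and 3.33 at the high dose, with log2 fold changes of -0.22 ± 0.13 and -0.24 ± 0.13 (limma, adjusted p = 0.439 and 0.415). The second probe read 3.09, 2.75, 2.51, 3.1 and 2.46 in the vehicle mice, 1.99, 2.19, 2.08, 1.78 and 1.62 at the medium dose and 2.38, 1.90, 1.48 and 1.68 at the high dose. On it every medium-dose and every high-dose mouse was below the vehicle mice, and it was called at both doses, at -0.85 ± 0.19 and -0.92 ± 0.20 (limma, adjusted p = 0.0156 and 0.0108). The third probe was called as well, at -0.76 ± 0.20 and -0.79 ± 0.21 (adjusted p = 0.0381 and 0.0389), with high-dose mouse 16 at 2.06 inside the vehicle range of 1.92 to 2.72. At the low dose neither was called, at -0.50 and -0.43. The call of the third probe was lost without vehicle mouse 1, 2 or 4 at both doses, without medium-dose mouse 11, 13, 14 or 15 at the medium dose, and without high-dose mouse 17, 18 or 20 at the high dose. Of the mice left out in turn, mouse 18 alone ended the call of the second probe, at the high dose. The second probe was also not called at either dose with the scanner software's ratios (-0.78 and -1.20, limma adjusted p = 0.348 and 0.131), the third not with scale normalization (-0.69 and -0.70), and neither with median centring (-0.80 and -0.83, and -0.71 and -0.73). Averaging each gene's probes in place of taking the brightest put Col4a4 among the called genes, so that 5 genes were called at either of these doses. Which transcript parts the probes read was not tested.

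**Figure D4:**
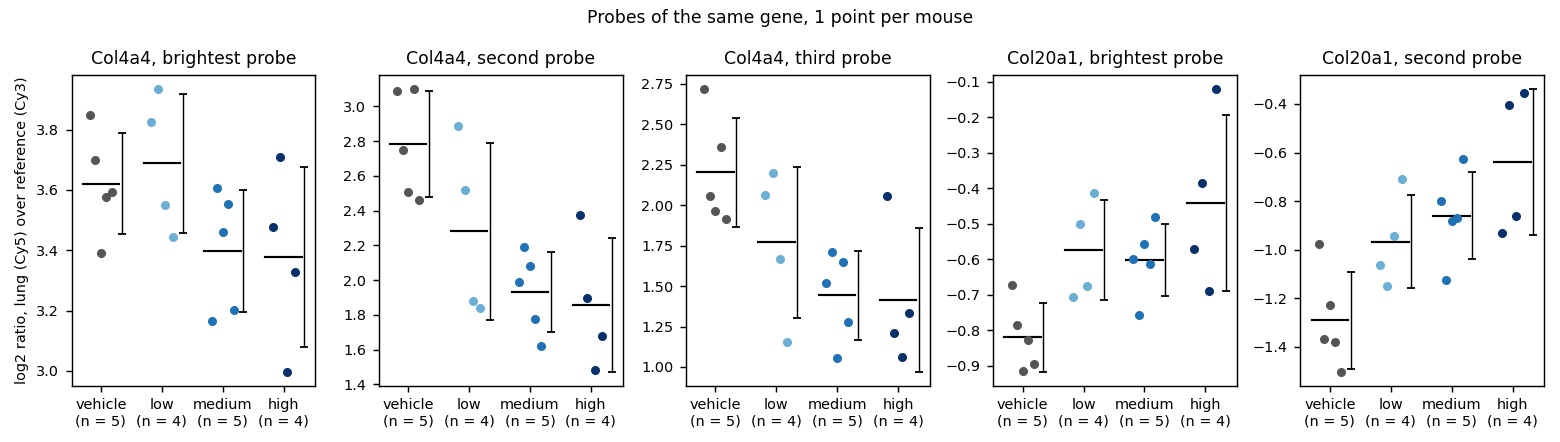
Log2 ratio of lung over reference RNA (y axis) in each mouse (points) by dose group (x axis) for the 3 probes of Col4a4 and the 2 probes of Col20a1, with group means (lines) and ± 1 SD (bars). The brightest Col4a4 probe overlaps between groups, while the other probes lie lower at the medium and high dose, and at the high dose the dimmer Col20a1 probe lies above all vehicle mice.

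Among the fibril-associated collagens, which decorate fibril surfaces, Col16a1 stood lower and Col20a1 higher, neither reaching the fold limit on its standing probe. Col16a1 had vehicle values of -1.44, -1.64, -1.39, -1.58 and -1.56, low-dose values of -1.86, -2.05, -1.74 and -1.90, medium-dose values of -2.27, -1.99, -1.59, -1.68 and -2.01 and high-dose values of -1.99, -1.66, -1.94 and -1.79. Low-dose and high-dose mice were all below the vehicle mice, and medium-dose mouse 13 alone overlapped them. Its log2 fold change was -0.37, -0.39 and -0.32 (limma, adjusted p = 0.31, 0.0495 and 0.131), so that it passed the adjusted p, but not the fold limit, at the medium dose. Its other 2 probes did not pass at any dose and differed in sign, one at -0.66, -0.33 and 0.16 in order of dose and the other at -0.23, 0.02 and -0.01, with signals well above background on 16 and 13 arrays.

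Col20a1, a little-studied chain of the same group, had both probes above the vehicle mean at every dose. The brighter probe stood at -0.82 ± 0.10 (SD, n = 5) in vehicle mice and -0.44 ± 0.25 (n = 4) at the high dose, a log2 fold change of 0.38 ± 0.10 (limma, adjusted p = 0.0338) under the fold limit and with overlapping mice. The dimmer probe read -0.98, -1.37, -1.23, -1.38 and -1.5 in the vehicle mice and -0.93, -0.40, -0.86 and -0.35 at the high dose, all higher, with mouse 16 only just so. It was called there, at 0.65 ± 0.13 (adjusted p = 0.00552), and not at the medium dose, at 0.43 ± 0.12 (adjusted p = 0.0591). Without high-dose mouse 17 or 20 its fold change was 0.58 or 0.56 and under the fold limit, as it was with Cy5 alone (0.56), and with median centring it was 0.76 (limma, adjusted p = 0.47). The other fibril-associated chains were not called, with Col14a1, which is made by lung fibroblasts, at -0.07, -0.20 and -0.08 and Col22a1, Col19a1 and the 3 collagen IX chains between -0.17 and 0.19. Of these, Col19a1, Col22a1 and Col9a3 were well above background on no array.

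Nothing in the other families was called. Col15a1 and Col18a1, which sit at basement membranes and hold the endostatin domain, were at -0.31, -0.22 and -0.20 and at -0.08, 0.00 and 0.07. For Col15a1 every low-dose mouse was below every vehicle mouse (two-sided exact permutation p = 0.00794, limma adjusted p = 0.254), and its other 2 probes, well above background on no array, were at -0.16 and -0.07. Col23a1, a transmembrane collagen that stood at 3.21 ± 0.15 (SD, n = 5) over the reference, was at 0.38, 0.32 and 0.24 (smallest adjusted p = 0.149), while its dimmest probe was at -0.12, -0.33 and -0.34, so that the sign depended on the probe. Col13a1, Col17a1 and Col25a1, also transmembrane, lay between -0.11 and 0.13. Col7a1, the anchoring fibril chain, was at -0.12, -0.13 and -0.15, Col8a1 and Col8a2, the short-chain collagens of vessel walls, between 0.08 and 0.25, and Col10a1, the chain of growth plate cartilage, between 0.01 and 0.09. Col26a1 and Col28a1 lay between -0.06 and 0.23. In all, the standing probes of 25 genes were well above background on every array, 11 on some and 7 on none, the last being Col9a3, Col10a1, Col11a1, Col19a1, Col22a1, Col24a1 and Col28a1. For these 7 the fold changes rest on signals not well above background.

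Genes that act on collagen were read in 7 lists of 107 reported genes in all, written with earlier results of these data known. At the medium dose 4 were called, 3 lower and 1 higher, and at the high dose 6, 5 lower and 1 higher, against 1 lower at the low dose. These counts lie beside the 0.934% and 1.51% of named genes called at the medium and high dose. The median log2 fold change over the 107 genes was -0.07, -0.01 and -0.04.

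The largest fall among the called genes of these lists was in other matrix proteins, of which 3 of 22 were called at the medium and the high dose. Of the 22, 16 were below 0 at each dose, with medians of -0.16, -0.19 and -0.18. An unadjusted p under 0.05 in limma was found for 6, 10 and 10 of them in order of dose. Mfap2, a microfibril protein of elastic fibres, fell at all 3 doses, by 1.51-fold, 1.76-fold and 2.28-fold (limma, adjusted p = 0.0136, 4.61e-05 and 3.21e-07), and all dosed mice were below all vehicle mice. Dcn (decorin), a proteoglycan that binds collagen I fibrils, fell by 1.91-fold and 1.87-fold at the medium and high dose (adjusted p = 0.0176 and 0.0262). Tnc (tenascin C), a matrix protein of development and injury, fell by 1.55-fold and 1.89-fold (adjusted p = 0.0452 and 0.00492). Eln (elastin) and Sparc, which binds collagen, were at -0.54 and -0.53 at the medium dose and -0.51 and -0.35 at the high dose without passing, and Postn (periostin) was at 0.37 at the high dose (adjusted p = 0.02), under the fold limit.

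The enzymes that modify and fold the chains were not called. None of the 19 passed at any dose, with 1 and 3 at an unadjusted p under 0.05 at the medium and high dose. P4ha1 and P4hb, subunits of the prolyl hydroxylase that stabilizes the triple helix, were at -0.12 and 0.07 at the high dose. Plod2, a lysyl hydroxylase, was at -0.60 (adjusted p = 0.077), and Serpinh1, the collagen chaperone HSP47, at -0.52 (adjusted p = 0.289).

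Of the 14 genes for trimming and cross-linking, Adamts14, a procollagen N-proteinase, fell by 1.56-fold at the high dose (limma, adjusted p = 0.00214), and its relative Adamts2 was at -0.31 (adjusted p = 0.205). Lox, the cross-linking lysyl oxidase, was at -0.02, and Loxl4 at 0.32 (adjusted p = 0.0323), under the fold limit. Of the 13 genes for degradation, Mmp8, the neutrophil collagenase, rose by 1.72-fold and 1.98-fold at the medium and high dose (adjusted p = 0.0496 and 0.0157), and Mmp14, a membrane-bound collagenase of mesenchymal cells, fell by 1.53-fold at the high dose (adjusted p = 0.0352). Timp1, an inhibitor of these enzymes, was at -0.70 with a wide error (SE 0.35, adjusted p = 0.347).

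The 8 collagen receptors measured, among them Itgb1 and Ddr1, were not called at any dose and had no unadjusted p under 0.05, and the 14 other basement membrane proteins were not called either. In the TGF-beta pathway, a main inducer of fibrillar collagen, none of the 17 genes reported was called by limma, with 1, 3 and 4 at an unadjusted p under 0.05 at the 3 doses. Ccn2, a target of the pathway, was at 0.43 and 0.56 at the medium and high dose without passing. Tgfb1, the main ligand, was at 0.01 and 0.06, and Tgfb3, another ligand, at -0.42 and -0.49 (limma, adjusted p = 0.00487 and 0.00154), under the fold limit though all medium-dose and high-dose mice were below all vehicle mice.

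**Figure D5:**
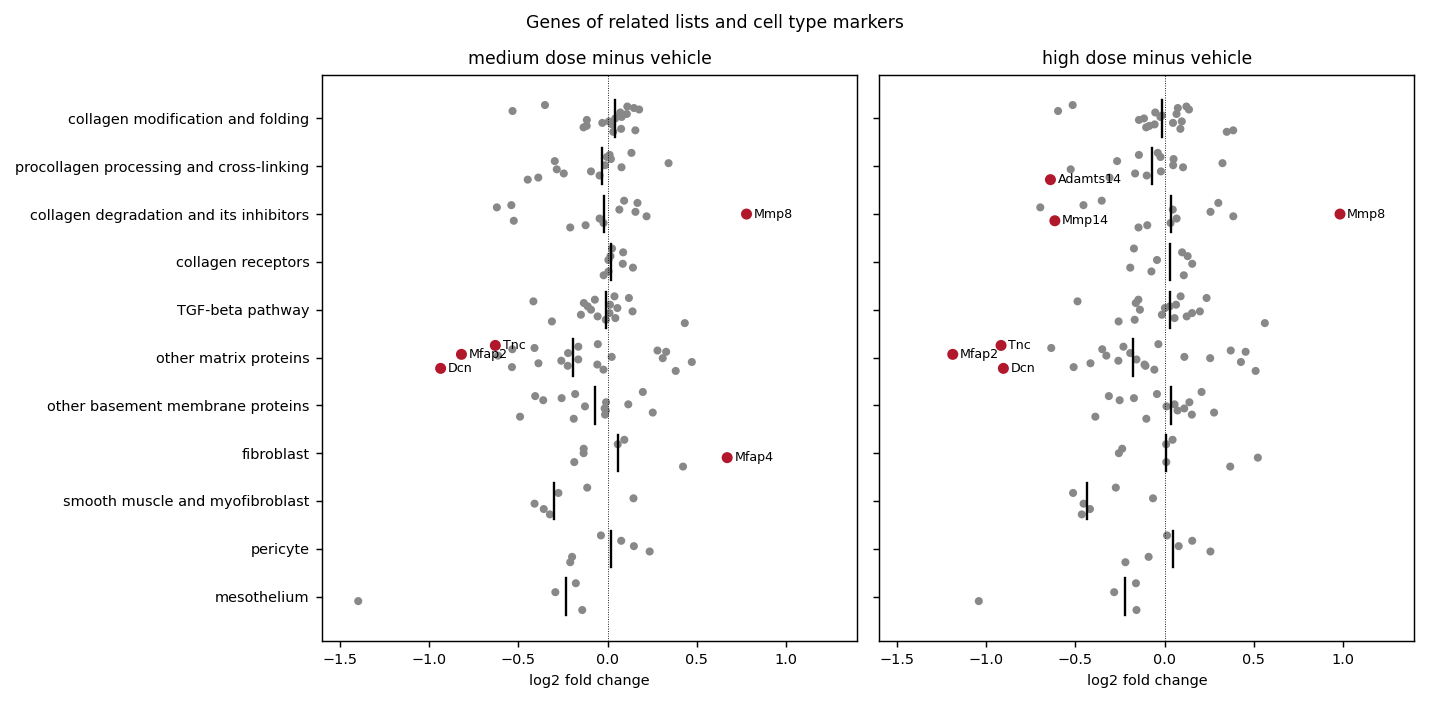
Log2 fold change (x axis) of each gene (points) of the collagen-related lists and of 4 cell type marker lists (y axis) at the medium and high dose, with list medians as black lines. Red, named points are called. Mfap2, Tnc and Dcn lie lowest among the called genes and Mmp8 highest.

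Markers of the cells that could carry these transcripts moved as follows. Of 7 fibroblast markers, Mfap4 rose at the medium dose by 1.59-fold (limma, adjusted p = 0.00089) and the other 6 were not called. Pdgfra was at -0.08, -0.13 and -0.24 and Tcf21 at 0.12, 0.09 and 0.04. The highest change among the 7 was 0.63, 0.67 and 0.52 in order of dose, and 2, 3 and 2 of them were below 0. The mean of the 7 per mouse ran from -0.03 to 0.03 in vehicle, 0.08 to 0.29 in low-dose, -0.10 to 0.29 in medium-dose and -0.19 to 0.24 in high-dose mice, relative to the vehicle mean. The 6 smooth muscle and myofibroblast markers were not called (median -0.06, -0.30 and -0.44). Of them, 4, 5 and 6 were below 0 in order of dose, with 0, 1 and 3 at an unadjusted p under 0.05 in limma. Their per-mouse mean ran from -0.66 to 0.35 in vehicle and from -0.65 to -0.15 in high-dose mice. Vehicle mouse 3 held the top vehicle value of this mean, and high-dose mice 18 and 20 the lowest and highest of their group, as for collagen I and III. Vehicle mouse 4 held the lowest vehicle value of -0.66, where its mean for the 4 called collagen genes was -0.08. Medium-dose mouse 13, top of its group for the 4 collagen genes, was at -0.42 here, where mouse 14 was highest at 0.17, and low-dose mouse 10 was at 0.32. The 6 pericyte markers had medians of 0.11, 0.02 and 0.05 and no call. Pecam1 and Emcn, of 6 endothelial markers, rose at the high dose by 1.67-fold and 1.75-fold (limma, adjusted p = 0.000597 and 0.000323). Both were called higher at the medium dose too, and the other 4 were not called. Of the 6 endothelial markers, 3 were below 0 and 3 above at each dose, with medians of 0.19, 0.02 and 0.10. At the high dose they ran from -0.38 to 0.81, and 1 had every high-dose mouse below every vehicle mouse. No marker of alveolar type 1, alveolar type 2 or club cells or of leukocytes was called at any dose. The 5 alveolar type 1 markers were all below 0 at each dose (medians -0.13, -0.16 and -0.23, with 0, 2 and 3 at an unadjusted p under 0.05 in limma). The 6 alveolar type 2 markers had medians of -0.13, -0.25 and -0.14, were all below 0 at the medium and high dose, and had 1, 3 and 2 at such a p.

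Mesothelial markers varied most between mice. The mean of the 4, of which 1 was well above background on every array, ran from -0.70 to 1.5 in vehicle, -0.92 to -0.23 in low-dose, -0.83 to 0.31 in medium-dose and -0.67 to -0.29 in high-dose mice. Vehicle mouse 4 held the top value of 1.5, where its mean for the 4 called collagen genes was -0.08, and vehicle mouse 3, highest for those genes at 0.58, was at 0.18. Medium-dose mouse 13, highest of its group for the collagen genes, was also the highest of its group here. Msln was at -1.04, -1.40 and -1.04 with no call (adjusted p = 0.114 at the lowest). None of the 8 cartilage markers was called, with medians of 0.08, 0.07 and -0.00. The part of any of these cell types in the fall of the fibrillar genes was not tested.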

How the data were processed

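Lung RNA of 18 mice was measured on 2-colour Agilent arrays. The authors deposited, for each array, Feature Extraction 11.0.1.1 output with the median signal intensity of both channels and a log10 ratio of Cy5 over Cy3 made by the scanner software, and a table of log2 ratios normalized by the authors within arrays (correlation with the values used here 0.996 to 0.998). Log2 ratios of the median intensities were normalized by loess without background subtraction in R 4.3.3 with limma 3.58.1. Outlier spots (215 to 307 per array) and control spots were left out, and spots of a probe were averaged. A value was lacking on at least 1 array for 86 probes.

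A single limma model held all 4 groups, and p-values were adjusted within each comparison over 55681 probes. The study's methods name MAANOVA, which was not run here, and limma stands in for it. Accessions were matched to symbols through a RefSeq table, which named 27235 probes. The collagen genes, the gene lists and the rule for named genes (called genes, all chains of collagens I and III to VI, the 5 largest changes at the high dose without overlap, genes with another probe called, list members called with up to 4 others per list, and markers) were chosen with earlier results of these data known. The other chains are given to account for every member. An item of the related lists is not reported here and was left out of their counts. Alternatives were normexp with an offset of 50, the scanner ratios, the authors' table, median centring, scale normalization, Cy5 alone, a slide block, only the groups compared, restriction to probes well above background, the mean of all probes, no fold limit, and each mouse left out. The fit was tested on simulated data. The number of arrays limits the precision, and p-values measure the spread between mice, of which each gave 1 array.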

Additional observations from a re-analysis of the deposited data

Results flagged for a closer look

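In 36 groups of mice examined for a value far from the rest of its group, 3 were found. The same mice recur among the groups, so a chance rate for separate groups does not apply, and whether 3 is an excess was not tested. The flags for Col1a1 and Col5a3 are of the same animal, which was the highest vehicle mouse for each of the called genes, and are not independent. Vehicle mouse 3 had a log2 ratio of -1.73 for Col1a1, where the other vehicle mice ran from -2.60 to -2.50, and of -1.14 for Col5a3, where the others ran from -2.18 to -1.89. Medium-dose mouse 13 had a mean of 0.31 over the mesothelial markers, relative to the vehicle mean, where the other medium-dose mice ran from -0.83 to -0.65. The results without vehicle mouse 3 stand beside the counts above.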

How the results depend on the processing

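No called gene changed direction under any alternative, while the medians over the collagen genes, all near 0, took either sign. The low-dose call of Col5a3 went to 0 genes with the scanner software's ratios, median centring, scale normalization or only the groups compared. Median centring in place of loess also gave 0 collagen genes at the medium and high dose, and 0 of the related matrix genes at the 3 doses. Under it 2, 23 and 50 named genes in all were called in place of 33, 193 and 312, of which 0%, 13% and 12% were lower in place of 27.3%, 46.1% and 51.3%. Scale normalization moved this share to 34.9% and 39.5% at the medium and high dose, and the scanner software's ratios to 11.8% of 17 at the low dose. The cause was not tested. The fold changes of Col1a1, Col1a2, Col3a1 and Col5a3 under median centring lay between -0.72 and -0.38 at the medium and high dose. The Cy5 channel alone called 2 collagen genes at the high dose (Col3a1 and Col5a3). The scanner software's ratios called 2 related matrix genes at the medium dose in place of 4. With only probes well above background, the median over the collagen genes was -0.10 (medium) and -0.11 (high), over 29 genes in place of 43. Leaving out 1 mouse gave 0 to 1 genes at the low, 3 to 4 at the medium and 1 to 4 at the high dose. Of the counts and medians recomputed, 179 stayed within 1.5 times the reported count or within 1 SD, and 27 did not. Of the values for single probes, 512 kept their side of the limits and 67 lost the call. The 512 include refits of results that were not called to begin with and could not lose a call. The groups share no replicate numbers that could pair mice. With the slide as a block, 1, 4 and 4 collagen genes were called in order of dose, as without it. Signal over background limits 18 of the 43 genes, which were not well above background on every array.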
